A study of Mus musculus with 7 samples.

Results

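Transcripts of 9 genes that carry out or regulate fat cell lipolysis were followed in mature white adipocytes with and without the short-chain fatty acid receptor FFA2. The genes were taken by name and role, by a rule that uses no measured value, as the triglyceride, diglyceride and monoglyceride lipases with their co-activator, inhibitor, protein kinase A subunits and glycerol channel: Pnpla2, Lipe, Mgll, Abhd5, G0s2, Pnpla3, Prkaca, Prkar2b and Aqp7. They are 9 of the 57010 gene identifiers in the count table, and all 9 passed the filter on low counts that left 17039 genes for testing. The adipocytes were freed by collagenase from the perigonadal fat of male mice, which the labels describe as 20 weeks old and fed normal chow (Teklad LM-485) without other treatment. The 3 control mice, FFA2 fl/fl, carried floxed FFA2 alleles without Cre, and their 4 co-housed Adipoq-F2-KO littermates carried the same floxed alleles together with Adiponectin-Cre, which is active in fat cells. Other cells that come along with the floating adipocytes therefore keep FFA2, and Cre itself is present in 1 genotype only, so that its presence and the loss of FFA2 cannot be told apart. Poly(A)-selected stranded libraries gave 30478997 to 39992605 counts each, and each library is called here by its genotype and number.

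In fat cells, stored triglyceride is cut in a chain. ATGL (Pnpla2) removes the first fatty acid, hormone-sensitive lipase (Lipe) acts on the diglyceride, and monoglyceride lipase (Mgll) releases the last fatty acid and glycerol, which leaves through the channel Aqp7. ATGL needs its co-activator CGI-58 (Abhd5) and is held back by G0s2, while cAMP frees the catalytic subunit of protein kinase A (PKA, Prkaca) from regulatory subunits such as Prkar2b, and PKA then phosphorylates hormone-sensitive lipase and perilipin. FFA2 couples to Gi proteins, which lower cAMP.

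The promoters of 4 members are printed, picked after the expression values had been seen. Lipe and Prkaca were the members whose libraries separated by genotype. Mgll acts directly after Lipe but did not separate, and Pnpla3 alone held a full cAMP response element. Each line gives the 250 bases before the first RefSeq start on GRCm38.p6, read 5′ to 3′ on the gene's strand. In the first 3 lines the capitals mark the E-box CACGTG, which reads alike on both strands, and in Prkaca also TGACG or its reverse complement CGTCA, the core of a cAMP response element. In Pnpla3 they mark the full element TGACGTCA, which also reads alike on both strands and contains the core on each.
Lipe, chr7:25395988-25396237, minus strand: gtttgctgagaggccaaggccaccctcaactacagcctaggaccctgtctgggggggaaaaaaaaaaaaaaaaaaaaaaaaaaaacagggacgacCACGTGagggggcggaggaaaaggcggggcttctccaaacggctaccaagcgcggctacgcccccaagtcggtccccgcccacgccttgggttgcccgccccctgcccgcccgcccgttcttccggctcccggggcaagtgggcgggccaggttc
Prkaca, chr8:83972728-83972977, plus strand: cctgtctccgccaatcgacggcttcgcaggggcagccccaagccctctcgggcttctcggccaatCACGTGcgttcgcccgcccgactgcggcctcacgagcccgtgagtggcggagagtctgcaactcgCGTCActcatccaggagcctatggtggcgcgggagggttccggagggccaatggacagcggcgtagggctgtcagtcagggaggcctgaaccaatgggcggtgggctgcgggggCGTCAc
Mgll, chr6:88724162-88724411, plus strand: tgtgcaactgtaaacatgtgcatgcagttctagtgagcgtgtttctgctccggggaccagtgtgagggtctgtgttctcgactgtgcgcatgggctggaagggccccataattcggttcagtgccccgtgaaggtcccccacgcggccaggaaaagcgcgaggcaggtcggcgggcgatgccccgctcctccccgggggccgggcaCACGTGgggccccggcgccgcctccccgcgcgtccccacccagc
Pnpla3, chr15:84167566-84167815, plus strand: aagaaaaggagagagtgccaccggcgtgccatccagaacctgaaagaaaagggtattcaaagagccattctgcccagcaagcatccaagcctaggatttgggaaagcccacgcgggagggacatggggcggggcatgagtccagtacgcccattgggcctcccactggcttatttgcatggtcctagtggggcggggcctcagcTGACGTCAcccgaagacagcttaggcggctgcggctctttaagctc
RefSeq gave 14 such windows for the 9 members. CACGTG was found in 4 of them, 1 each for Lipe, Mgll, Prkaca and Prkar2b, and in 6.02% of all 32851 windows. The core was found in 4 windows (G0s2, Prkaca, Abhd5 and Pnpla3) against 17.8% of all windows, the full element in 1 against 1.55%, and the nuclear receptor motif AGGTCA, or TGACCT on the other strand, in 3 windows of Aqp7 and Abhd5 against 14.0%. The Aqp7 windows overlap and share a match, so they are not separate finds. The motifs were chosen after the expression values had been seen, and matches are letters and not measured binding. Mgll and Prkar2b (not printed), whose groups overlapped, share the E-box with Lipe and Prkaca.

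The floxed gene itself separated the genotypes. Ffar2, which encodes FFA2, had 37.5, 33.9 and 32.0 CPM (normalized counts, relative to library size scaled by TMM) in FFA2 fl/fl libraries 1 to 3, whereas Adipoq-F2-KO libraries 1 to 4 had 1.68, 1.15, 1.33 and 2.58. It fell by 4.36 on the log2 scale (SE 0.22; edgeR's quasi-likelihood test, adjusted p = 7.97e-06). The 12 adipocyte markers summed to 58991 to 65679 CPM in FFA2 fl/fl libraries and to 49173 to 60727 CPM in those of Adipoq-F2-KO. Of the 12, 11 had a negative fold change, none of them past the threshold (median log2 fold change -0.22). In the controls, 14 macrophage markers summed to 627 to 746 CPM and 8 endothelial markers to 809 to 1126 CPM, and mitochondrial transcripts took 4.41% to 5.77% of counts. In Adipoq-F2-KO the same quantities were 829 to 1020 CPM, 1117 to 1960 CPM and 6.61% to 10.3%. Of the 14 macrophage markers, 12 had a positive and 2 a negative fold change. Cd68 and Lyz2 passed edgeR (log2 fold changes 0.72 and 0.69, adjusted p = 0.0416 and 0.0383), as did 1.02% of all tested genes. Sums of 5 erythroid markers lay between 97.6 and 223 CPM in the controls and between 209 and 372 CPM with Cre, highest in library 4, and those of 8 fibroblast progenitor markers between 1209 and 1531 and between 1474 and 1770 CPM, none of these 13 past the threshold. Markers of T cells, neutrophils and B cells summed to at most 17.0 CPM in a library, with the neutrophil marker Ly6g at 0 in all 7, and 4 germ cell markers reached 110 CPM in Adipoq-F2-KO library 2 alone. In bulk RNA, fewer adipocytes and less of a transcript in each adipocyte cannot be told apart, and the part of these shifts in the values that follow was not tested.

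None of the 9 members passed an adjusted p of 0.05 in edgeR's quasi-likelihood test with Benjamini-Hochberg adjustment over all 17039 genes, where 1.02% of genes passed. The point estimates were nevertheless mostly negative: 8 of the 9 log2 fold changes lay below 0, with a median of -0.23 beside 0.00 over all tested genes. At an unadjusted p under 0.05, 2 members were lower in Adipoq-F2-KO, Lipe and Prkaca, while 7.37% of all genes were lower at that level. In the same 2 members every Adipoq-F2-KO library lay below every FFA2 fl/fl library, which held for 8.72% of all genes. DESeq2 called 1 member, Lipe, and 6.21% of the genes to which it gave an adjusted p. The limma voom fit called 0 members and 208 of all 17039 genes.

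**Figure D1:**
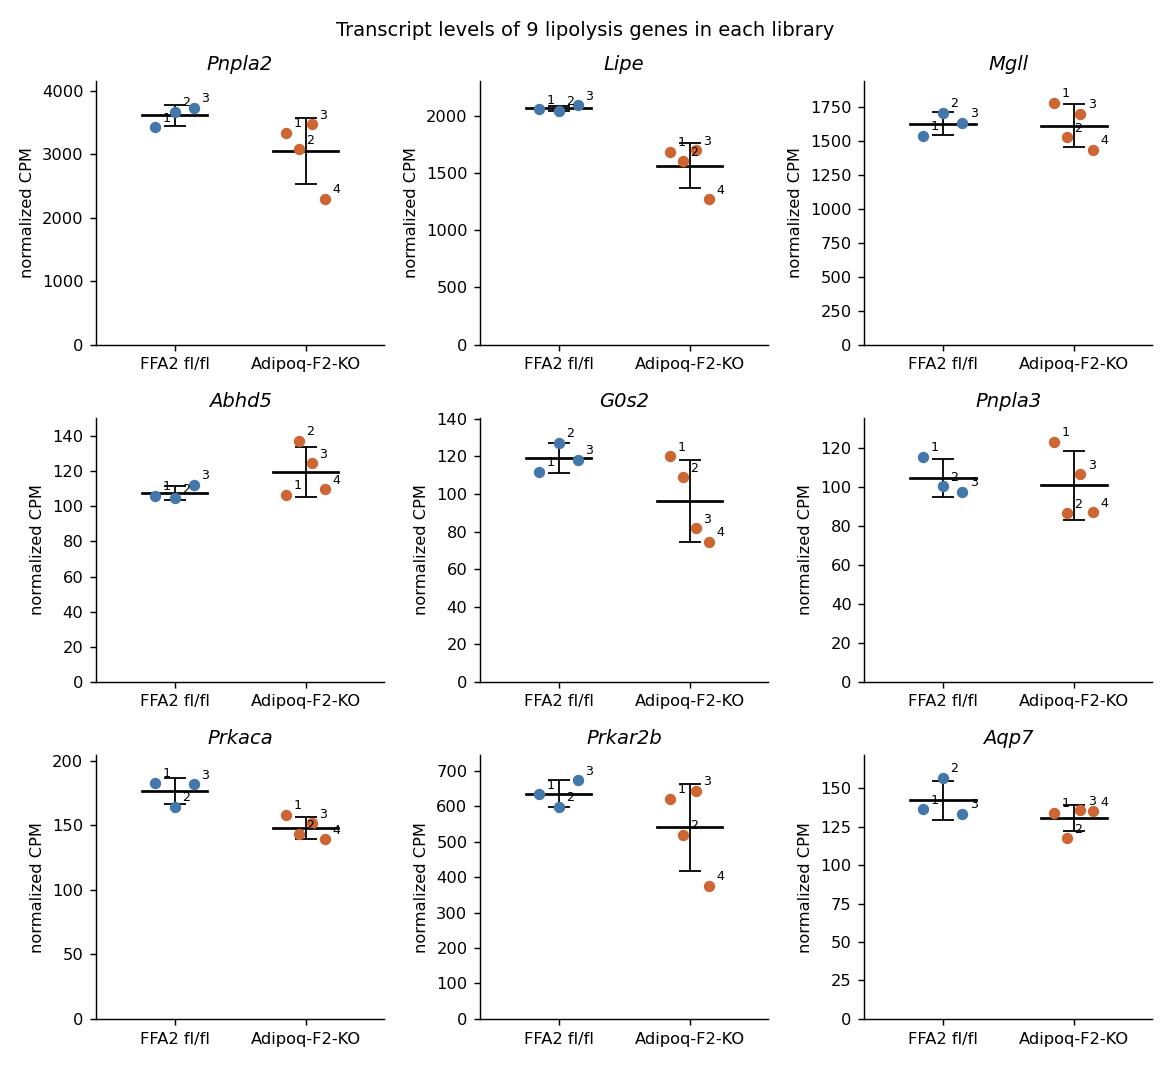
Normalized CPM (vertical axes, from 0) of the 9 lipolysis genes in the 3 FFA2 fl/fl libraries (blue) and the 4 Adipoq-F2-KO libraries (orange), with the library number beside each point and the mean and SD as black lines. The groups are apart in Lipe and Prkaca alone, and Adipoq-F2-KO library 4 is the lowest of all 7 libraries for 6 of the 9 genes.

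Pnpla2 had the highest level of the 9 members. It stood at 3427, 3668 and 3732 CPM in FFA2 fl/fl libraries 1 to 3, whereas Adipoq-F2-KO libraries 1 to 4 had 3335, 3078, 3471 and 2299 CPM. The groups overlapped, since Adipoq-F2-KO library 3 lay above FFA2 fl/fl library 1, and library 4 stood well below all others. The log2 fold change of -0.24 (SE 0.13, 95% interval -0.54 to 0.05) did not pass the test (adjusted p = 0.362), and without Adipoq-F2-KO library 4 it was -0.13.

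Lipe, the gene of hormone-sensitive lipase, had the smallest p of the 9 members. Its levels were 2055, 2042 and 2090 CPM in FFA2 fl/fl, a coefficient of variation of 1.19%. They were 1683, 1602, 1698 and 1271 CPM in Adipoq-F2-KO. All 4 Adipoq-F2-KO libraries were thus lower than all 3 controls, and their mean was 75.8% of the control mean. The log2 fold change was -0.40 (SE 0.11, 95% interval -0.64 to -0.16), with an unadjusted p of 0.00391 and an adjusted p of 0.104 in edgeR. DESeq2 gave -0.40 with an adjusted p of 0.0094. With limma voom and under the other scalings and filters the adjusted p ran from 0.0549 to 0.297, and none of these passed. Without Adipoq-F2-KO library 4 the value was -0.31 (adjusted p = 0.0795). Lipe shares 918 of its exon bases (15.6%) with 4732471J01Rik on the opposite strand, which had 59 to 181 counts against 37479 to 81041 for Lipe.

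Mgll, which completes the chain, stood at 1536, 1705 and 1631 CPM in FFA2 fl/fl, and the Adipoq-F2-KO libraries had 1776, 1524, 1698 and 1432 CPM. The highest and the lowest library were both Adipoq-F2-KO. Its log2 fold change was -0.01 with a 95% interval from -0.24 to 0.21 (adjusted p = 0.961 in edgeR), so that a change of the size estimated for Lipe lay outside the interval.

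Pnpla3, a relative of ATGL best known in liver, was at 116, 101 and 97.7 CPM in FFA2 fl/fl, and the Adipoq-F2-KO libraries had 123, 86.6, 107 and 87.0 CPM. The groups overlapped, with Adipoq-F2-KO library 1 above all controls and libraries 2 and 4 below them. Its log2 fold change was -0.05 (SE 0.13, 95% interval -0.34 to 0.24, adjusted p = 0.879).

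The co-activator and the inhibitor of ATGL had estimates of opposite sign. Abhd5 was at 106, 105 and 112 CPM in FFA2 fl/fl, and the Adipoq-F2-KO libraries had 107, 137, 125 and 110 CPM. It was the only member with a positive log2 fold change (0.15, SE 0.10, 95% interval -0.07 to 0.38, adjusted p = 0.473), and without Adipoq-F2-KO library 2, its highest, the value was 0.084. G0s2 was at 112, 127 and 118 CPM in FFA2 fl/fl, and the Adipoq-F2-KO libraries had 120, 109, 81.9 and 74.6 CPM. Its Adipoq-F2-KO libraries were split, with libraries 1 and 2 at or near the control range and libraries 3 and 4 below it. The log2 fold change of G0s2 was -0.31 (SE 0.15, 95% interval -0.64 to 0.03, adjusted p = 0.319), and without Adipoq-F2-KO library 4 it was -0.20. Abhd5 shares 950 of its 5956 exon bases with A730085K08Rik on the opposite strand, which had 2 to 25 counts.

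The catalytic PKA subunit separated as Lipe did, at a smaller size. Prkaca was at 183, 165 and 182 CPM in FFA2 fl/fl, and the Adipoq-F2-KO libraries had 158, 143, 152 and 139 CPM, with no overlap between genotypes and a similar spread in both (coefficients of variation 5.84% and 5.76%). The log2 fold change was -0.25 (SE 0.09, 95% interval -0.44 to -0.06, unadjusted p = 0.0135, adjusted p = 0.167 in edgeR and 0.0849 in DESeq2). Without Adipoq-F2-KO library 4 it was -0.22.

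Prkar2b, the regulatory subunit typical of fat, was at 634, 599 and 674 CPM in FFA2 fl/fl, and the Adipoq-F2-KO libraries had 621, 520, 645 and 376 CPM. Libraries 1 and 3 of Adipoq-F2-KO lay within the control range and library 4 at 59.1% of the control mean. Its log2 fold change was -0.23 (SE 0.16, 95% interval -0.58 to 0.12, adjusted p = 0.472), and -0.09 without library 4.

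Aqp7, the glycerol channel, was at 137, 157 and 134 CPM in FFA2 fl/fl, and the Adipoq-F2-KO libraries had 134, 118, 136 and 135 CPM. Adipoq-F2-KO libraries 1, 3 and 4 lay together at the lower end of the control range, and library 2 below it. Its log2 fold change was -0.12 (SE 0.09, 95% interval -0.33 to 0.08, adjusted p = 0.532). It was -0.048 without FFA2 fl/fl library 2, the highest, and -0.070 without Adipoq-F2-KO library 2, the lowest. The other glycerol channels Aqp3 and Aqp9 did not pass the filter, with at most 0.486 and 0.608 CPM in any library.

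Adipoq-F2-KO library 4 carried much of the spread among the members. It was the lowest of the 7 libraries for Pnpla2, Lipe, Mgll, G0s2, Prkaca and Prkar2b, at 59.1% (Prkar2b) to 88.2% (Mgll) of the control mean. The same library had the highest mitochondrial share (10.3%) and the highest sums of endothelial (1960 CPM) and macrophage markers (1020 CPM) and the lowest adipocyte marker sum (49173 CPM), and the part of these in its values was not tested. Without it, edgeR again called 0 members, and Lipe and Prkaca kept their negative sign.

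Scaling the libraries by the adipocyte markers instead of TMM moved the median of all genes by 0.22 on the log2 scale, and the members moved with it. Under that scaling the log2 fold change was -0.19 for Lipe (adjusted p = 0.297), -0.04 for Prkaca, -0.04 for Pnpla2, -0.04 for Prkar2b and -0.09 for G0s2, and those of Mgll, Pnpla3 and Aqp7 turned positive (0.20, 0.15 and 0.09). Abhd5 had the highest value of the 9 under that scaling (0.37, adjusted p = 0.135). Lipe, at -0.19 with that scaling, did not pass the test, and its difference from Prkaca and Pnpla2 was not tested.

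**Figure D2:**
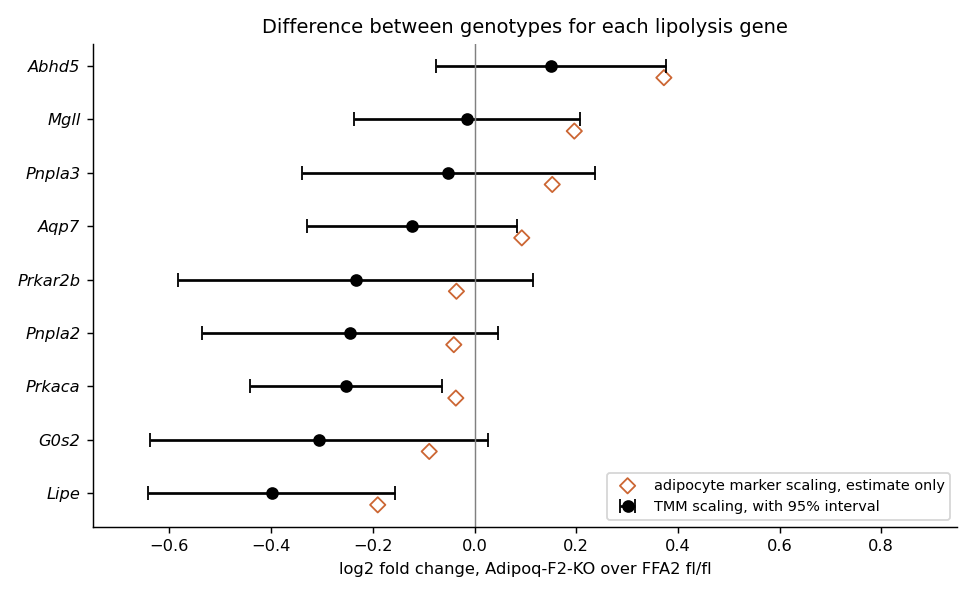
Log2 fold change of each lipolysis gene, Adipoq-F2-KO over FFA2 fl/fl (horizontal axis), from edgeR with TMM scaling (black points, bars for the 95% interval) and with the libraries scaled by 12 adipocyte markers (open diamonds). The intervals of Lipe and Prkaca alone lie wholly below 0, and every diamond lies to the right of its point.

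Per kilobase of exon, which allows levels of different genes to be compared, Pnpla2 led both genotypes (1195 ± 53.2 CPM per kilobase, SD, n = 3 in FFA2 fl/fl and 1008.5 ± 173, n = 4 in Adipoq-F2-KO). In FFA2 fl/fl it was followed by Lipe (350 ± 4.18), Mgll (320 ± 16.7), Prkar2b (174 ± 10.3), G0s2 (137 ± 8.93), Prkaca (71.0 ± 4.14), Pnpla3 (67.6 ± 6.21), Aqp7 (50.3 ± 4.49) and Abhd5 (18.1 ± 0.674). Of these neighbours, Prkaca and Pnpla3 alone overlapped in range. In Adipoq-F2-KO, Mgll (317 ± 31.1) came before Lipe (266 ± 33.9), with overlapping ranges, Prkar2b (148 ± 33.5) overlapped with G0s2 (111 ± 24.9), and Pnpla3 (65.2 ± 11.4) with Prkaca (59.6 ± 3.43). Aqp7 (46.2 ± 3.08) and Abhd5 (20.1 ± 2.38) kept the last places, so that the co-activator had the lowest level of the 9 in both genotypes.

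Ratios of counts within a library do not depend on how libraries are scaled, and they are given as descriptions with no test. The ratio of Mgll to Lipe was 0.748, 0.835 and 0.780 in FFA2 fl/fl, and the Adipoq-F2-KO libraries had 1.06, 0.952, 1.00 and 1.13. Every Adipoq-F2-KO library was thus above every control in this ratio. Lipe, itself lower in every Adipoq-F2-KO library, is part of this ratio and of the next. How often ratios of other gene pairs separate by genotype was not counted. The ratio of Lipe to Pnpla2 was 0.600, 0.557 and 0.560 in FFA2 fl/fl, and the Adipoq-F2-KO libraries had 0.505, 0.520, 0.489 and 0.553. These groups did not overlap either, by a narrow margin between FFA2 fl/fl library 2 and Adipoq-F2-KO library 4. The ratio of the co-activator Abhd5 to Pnpla2 was 0.0310, 0.0286 and 0.0301 in FFA2 fl/fl, and the Adipoq-F2-KO libraries had 0.0320, 0.0446, 0.0359 and 0.0478, all above the controls. The ratios of G0s2 to Pnpla2 (means 0.0330 and 0.0319), Pnpla3 to Pnpla2 (0.0291 and 0.0334) and Prkar2b to Prkaca (3.60 and 3.63) overlapped between genotypes.

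**Figure D3:**
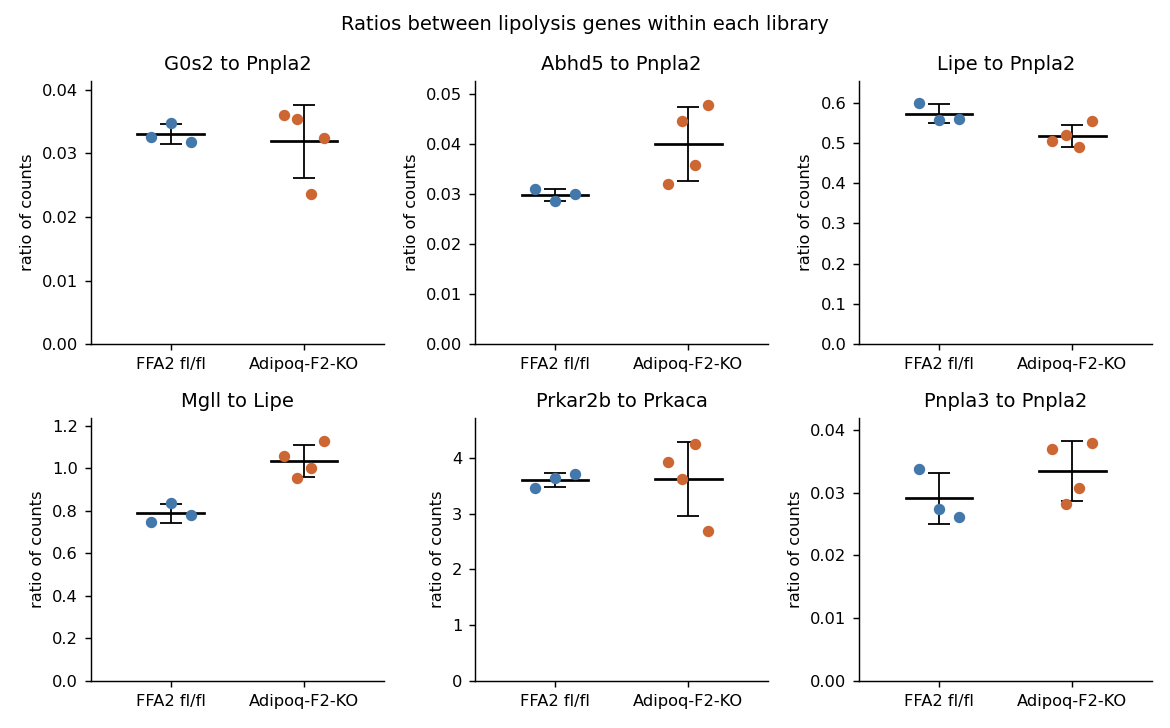
Ratio of counts between 2 lipolysis genes (vertical axes, from 0) in each FFA2 fl/fl (blue) and Adipoq-F2-KO library (orange), with mean and SD as black lines. Mgll to Lipe lies between 0.748 and 0.835 in FFA2 fl/fl and between 0.952 and 1.13 in Adipoq-F2-KO.

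Among the PKA regulatory subunits, per kilobase, Prkar2b made up 73.1%, 71.5% and 73.2% in FFA2 fl/fl and 72.5%, 67.1%, 73.1% and 59.9% in Adipoq-F2-KO. The groups overlapped, and library 4 of Adipoq-F2-KO was again the lowest. Prkar1a, the widely expressed type I subunit, made up most of the rest (22.6% and 27.1% on average). Its own log2 fold change was 0.08 (adjusted p = 0.653 in edgeR), and 0.053 to 0.12 with single libraries left out. Prkaca made up 91.3% of the catalytic subunits on average in the controls and 89.8% in Adipoq-F2-KO, the remainder being Prkacb, whose log2 fold change was -0.01 (adjusted p = 0.974). Prkar2a was lower in all Adipoq-F2-KO libraries (log2 fold change -0.24, adjusted p = 0.181), without passing the test.

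**Figure D4:**
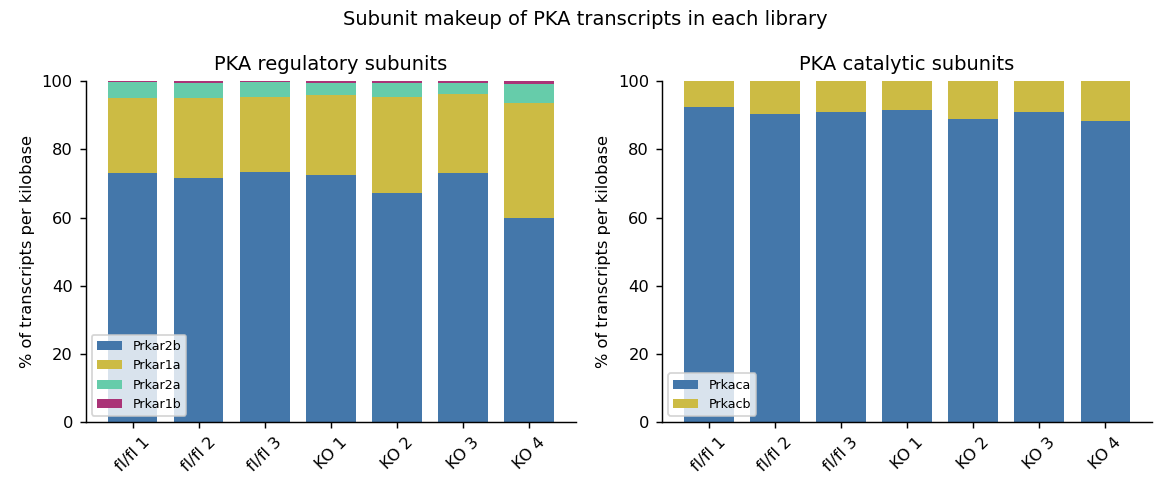
Share of each PKA subunit (vertical axis, percent of CPM per kilobase) among the 4 regulatory subunits (left) and the 2 catalytic subunits (right) in each library. Prkar2b and Prkaca take the largest share in all 7 libraries, with the lowest Prkar2b share, 59.9%, in Adipoq-F2-KO library 4.

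The rest of the pathway was read from 6 lists of 111 genes, of which 101 were tested. In edgeR 1 of them passed, Mlxipl, and it was lower, where 0.217% of all genes were called lower. A total of 14 were higher and 18 lower at an unadjusted p under 0.05, against 10.5% and 7.37% of all genes, and 9 had all Adipoq-F2-KO libraries above and 18 all below the controls, against 8.86% and 8.72%. DESeq2 called 11, of which 4 were higher and 7 lower, against 6.21% of all genes with an adjusted p. The median log2 fold change over the 101 was -0.08.

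Mlxipl, the gene of the carbohydrate-responsive factor ChREBP, which acts with Mlx at paired E-box-like elements, was at 114, 130 and 134 CPM in FFA2 fl/fl and from 78.8 (library 3) to 95.5 CPM (library 1) in Adipoq-F2-KO. It fell by 0.49 on the log2 scale (SE 0.10, adjusted p = 0.0471 in edgeR). DESeq2 also called it (log2 fold change -0.49, adjusted p = 7.2e-04). The edgeR call was narrow: leaving out single libraries gave adjusted p-values from 0.0409 to 0.20, and 1 of these 7 fits, the one without Adipoq-F2-KO library 4, called it. With adipocyte marker scaling its log2 fold change was -0.26 (adjusted p = 0.321), and with a replicate block, which also leaves out library 4, -0.52 (adjusted p = 0.0582), so that both ended the call. In the list of 14 transcriptional and insulin inputs it belongs to, Akt2, which carries the insulin signal, had a log2 fold change of -0.32 (adjusted p = 0.111 in edgeR and 0.0173 in DESeq2), Pparg, the master regulator of fat cells, 0.27 (adjusted p = 0.178), and the deacetylase Sirt1 0.41 (adjusted p = 0.144).

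Of the 12 tested genes listed for lipid droplets, which hold coat proteins and also factors of droplet formation and fatty acid binding, 11 had a negative fold change (median -0.24) and 0 passed edgeR, with 6 of the 12 below the controls in every Adipoq-F2-KO library, against 8.72% of all tested genes. Perilipin 1 (Plin1), which holds CGI-58 until PKA acts, was at 2962, 3061 and 3107 CPM in FFA2 fl/fl, and the Adipoq-F2-KO libraries had 2448, 2546, 2798 and 1893 CPM (log2 fold change -0.33, adjusted p = 0.198). Plin4 (-0.38, adjusted p = 0.127), Cidec (-0.40, adjusted p = 0.186) and Fitm2 (-0.45, adjusted p = 0.0588) had values of the same sign. DESeq2, which called 6.21% of the genes it gave an adjusted p, called Fitm2 and Plin4. With adipocyte marker scaling the values were -0.12 for Plin1, -0.17 for Plin4, -0.20 for Cidec and -0.24 for Fitm2, and 4 genes of this list (Plin1, Cidec, Fabp4 and Cidea) are themselves among the 12 adipocyte markers. The exception was Hilpda, an inhibitor of ATGL like G0s2, at 35.7, 65.4 and 40.5 CPM in FFA2 fl/fl, and the Adipoq-F2-KO libraries had 81.0, 71.4, 112 and 57.5 CPM (log2 fold change 0.77, SE 0.24, adjusted p = 0.134), with overlapping groups, and it passed with adipocyte marker scaling (0.95, adjusted p = 0.0403).

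Receptors and enzymes of cAMP numbered 30 tested genes, with 12 positive and 18 negative fold changes and 0 called in edgeR. The adenosine receptor Adora1, which like FFA2 couples to Gi, was lower in all Adipoq-F2-KO libraries (log2 fold change -0.47, adjusted p = 0.0556). Of the phosphodiesterases that break down cAMP, Pde3b, the one acted on by insulin in fat, was at -0.28 (adjusted p = 0.176), whereas Pde4b was at 0.95 (adjusted p = 0.0626) and the low Pde3a at 0.97 (adjusted p = 0.137). Pde4b was highest in Adipoq-F2-KO library 4, at 139 CPM against 40.5 to 55.9 CPM in the controls, and without that library it passed edgeR at a smaller value (0.68, adjusted p = 0.0346), as it did with adipocyte marker scaling (1.19, adjusted p = 0.0401). Pde3a was at 0.64 without library 4. DESeq2 called Adora1, Pde4b and Pde3a, against 6.21% of all genes to which it gave an adjusted p.

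Of 17 other PKA subunits, inhibitors and anchors, 10 had positive and 7 negative values and 0 were called in edgeR. The anchor Akap12 was above the controls in every Adipoq-F2-KO library (log2 fold change 0.52, adjusted p = 0.0577 in edgeR, called in DESeq2), Akap11 was at 0.29 (adjusted p = 0.267) and the mitochondrial anchor Akap1 at -0.15 (adjusted p = 0.456). Of 16 other lipases, 4 had positive and 12 negative values and 0 were called in edgeR. The lysosomal lipase Lipa was at 0.28 (adjusted p = 0.206), the endothelial lipase Lipg at 1.19 (adjusted p = 0.217, below 10 CPM in every library, and 0.72 without Adipoq-F2-KO library 4), Ddhd2 at -0.27 (adjusted p = 0.119), Pnpla7 at -0.41 (adjusted p = 0.126) and Abhd6, which also cuts monoglycerides, at -0.29 (adjusted p = 0.349). DESeq2, which called 6.21% of the genes given an adjusted p, called 1 of these lipases, the carboxylesterase Ces1d, which is named here after its values were seen (means 1250 CPM in FFA2 fl/fl against 935.5 CPM with Cre, log2 fold change -0.42, adjusted p = 0.0412 in DESeq2 and 0.159 in edgeR). Pnpla5 did not pass the filter, with at most 0.301 CPM.

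Of the 12 tested genes that handle the products, glycerol and fatty acids, 0 were called in edgeR. Pck1, needed to make new glycerol for re-esterification, was at 3415, 3530 and 3227 CPM in FFA2 fl/fl, and the Adipoq-F2-KO libraries had 2267, 2138, 2763 and 1293 CPM (log2 fold change -0.68, adjusted p = 0.113, called in DESeq2). Dgat2, which rebuilds triglyceride, was at -0.29 (adjusted p = 0.235), and the acyl-CoA synthetases Acsl4 and Acsl3 were at 0.66 and 0.44 (adjusted p = 0.108 and 0.189 in edgeR), Acsl3 at 0.28 without FFA2 fl/fl library 3. Besides Pck1, DESeq2 called Acsl4 (adjusted p = 0.0141), against 6.21% of all genes to which it gave an adjusted p.

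Adipocyte marker scaling, which raised the median of all genes, moved the other pathway genes as well. Of the genes with negative values, Ddhd2 was then at -0.049, Abhd6 at -0.069, Pnpla7 at -0.20, Pde3b at -0.064, Adora1 at -0.26, Akt2 at -0.10, Prkar2a at -0.018 and Dgat2 at -0.081, none of them past the threshold, and Akap1 and Prkacb turned positive (0.073 and 0.22). Of those with positive values, Prkar1a was at 0.31, Lipa at 0.49, Pparg at 0.49, Sirt1 at 0.64 and Akap11 at 0.52 without passing. Pparg is itself among the adipocyte markers used for that scaling. Akap12 passed (0.74, adjusted p = 0.0245), which with Hilpda and Pde4b made up the 3 pathway genes called under that scaling, all higher. Among all 17039 tested genes, the same scaling called 466, of which 455 were higher and 11 lower.

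**Figure D5:**
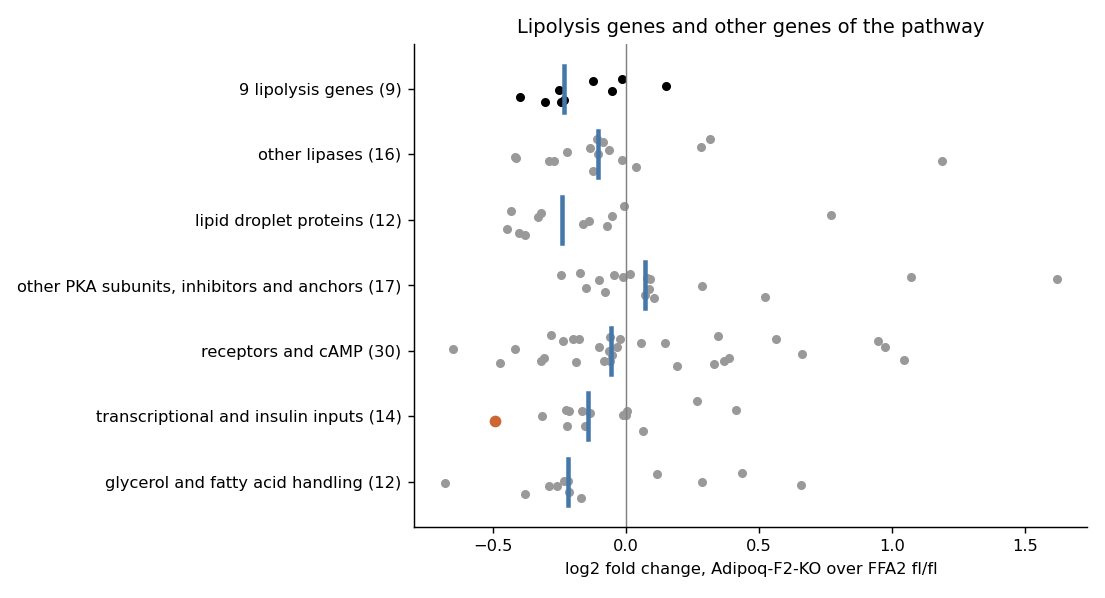
Log2 fold change, Adipoq-F2-KO over FFA2 fl/fl (horizontal axis), of each tested gene in the lipolysis set (black) and 6 lists of other pathway genes (grey), with the number tested in parentheses and the median as a blue bar. The single gene past the edgeR threshold, Mlxipl, is drawn in orange, and the median of the lipolysis genes lies at -0.23.

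Over the 7 libraries, the genes whose centred log2 CPM pattern was nearest to that of Lipe were Fbxo22, Plin4 and Stx4a, out of 8564 candidates with a mean of at least 10 CPM (root mean square differences 0.033, 0.038 and 0.039). Their own log2 fold changes were -0.38 in each case, beside -0.40 for Lipe. As these genes were picked for their likeness, the values are a description.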

How the data were processed

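Adipocyte RNA from 7 mice was sequenced as read pairs. Per the submitters' processing notes, the authors used Trimmomatic, STAR, featureCounts and DESeq2, and deposited whole-number counts per gene without normalization. The notes name GRCm38 (mm10), but the coordinates in the count table differ from that build and are not printed; promoters are RefSeq GRCm38.p6. Most counts from 1 to 49 were even (85.5% to 88.8%), so both mates of a pair appear to be counted. Strand options are not given in the sources used here, which leaves overlapping genes uncertain. The labels give the mice as 20 weeks old.

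Counts were filtered with filterByExpr, TMM-normalized and tested two-sided with glmQLFit and glmQLFTest of edgeR 4.0.16 (R 4.3.3), genotype as the only term, with Benjamini-Hochberg adjustment over 17039 genes. Alternatives were DESeq2 1.42.0, limma 3.58.1 voom, other scalings and filters, left-out libraries and a replicate block. The fits were tested on simulated data. P-values weigh the difference between genotypes against the spread between these mice, with information on variance shared across genes. The rule for the members uses gene roles alone, but members and lists were proposed with earlier results of these data known. Named were the members, Ffar2, called pathway genes, the 2 genes of smallest p per list and direction with a mean of at least 1 CPM, fixed partners of the members, and the 3 genes nearest to Lipe.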

Additional observations from a re-analysis of the deposited data

Results flagged for a closer look

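Aqp7 in Adipoq-F2-KO library 2 stood apart from its group, at 117.8 CPM against 134 to 136 CPM in the other 3 libraries. Its gap to the nearest library was 0.897 of the group's range, above Dixon's 95% critical value for 4 samples. Chance alone does this in about 1 of 20 groups, and 9 members and 6 ratios were examined. The same library held the germ cell markers (110 CPM), and their part in the value was not tested.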

How the results depend on the processing

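No lipolysis member was called in edgeR or limma voom under any setting tried, and DESeq2 called 1, Lipe. The number of genes called between genotypes (173, of which 136 were higher and 37 lower) was 466 with adipocyte marker scaling (455 higher and 11 lower). It was 890 in DESeq2, 208 in limma voom, 1403 with a filter of at least 1 count and 272 with 1 CPM in 3 libraries. With single libraries left out it was 1 to 178 (1 without FFA2 fl/fl library 1, 5 without library 3, 11 without Adipoq-F2-KO library 2). Called genes of the pathway lists (1, Mlxipl, lower) numbered 11 in DESeq2, 4 in limma voom, 3 with adipocyte marker scaling (3 higher and 0 lower, so that Mlxipl lost its call), 16 with at least 1 count, 4 with 1 CPM in 3 libraries and 0 to 2 with single libraries left out. Adipocyte marker scaling turned the log2 fold change positive for Mgll (0.20), Pnpla3 (0.15), Aqp7 (0.093), Akap1 (0.073) and Prkacb (0.22). With single libraries left out, Mgll ran from -0.066 to 0.037, Pnpla3 from -0.16 to 0.026 and Prkacb from -0.086 to 0.051. The labels number the mice. Deviations of same-numbered libraries correlated at 0.103, -0.015 and -0.040, and those of differently numbered ones at -0.175 to 0.165. Pairing by number was thus not evident, though these few values cannot exclude it. A replicate block over numbers 1 to 3, which leaves out Adipoq-F2-KO library 4, called 0 members and 2 pathway genes, Pde4b (higher, adjusted p = 0.0463, against 0.0346 without library 4 and unblocked) and Adora1 (lower, adjusted p = 0.0474), but not Mlxipl (adjusted p = 0.0582, against 0.0409 without library 4 and unblocked), and put Mgll at 0.036 and Pnpla3 at 0.0029. Beyond the left-out library or count minimum itself, the cause of these shifts was not tested.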
